A study of Mus musculus with 8 samples.

Results

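Genes of the spliceosome and its regulators were examined in aged mouse muscle stem cells (MuSCs) treated with nicotinamide and pyridoxine. The members were the protein-coding genes whose symbols begin with Snrp, Lsm, Sf3a or Sf3b, U2af, Prpf, Srsf or Hnrnp, followed by a number where the family is numbered. The rule found 81 genes among the 55487 gene identifiers of the count table, and 79 of them had enough counts to be tested, among 12060 tested genes. MuSCs are the cells that divide and fuse to repair skeletal muscle fibers. They were sorted by FACS from the hindlimbs of old male C57BL/6JRj mice, with a gate that leaves out cells positive for CD31, CD45, CD11B or SCA1, and cultured for 72 hours in growth medium. Control cultures received 1% DMSO as vehicle, and treated cultures received NAM/PN, the combination of nicotinamide (NAM, a form of vitamin B3) and pyridoxine (PN, a form of vitamin B6), for which the labels give 1 mM. Each of 4 pools, made from 2 mice each, gave 1 vehicle library and 1 NAM/PN library, so that libraries with the same pool identifier in the labels came from the same mice. No young mice and no single treatment with NAM or PN are part of this comparison, which asks what the combination changes in aged MuSCs ex vivo.

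Splicing removes introns from pre-mRNA. Small nuclear ribonucleoprotein particles (snRNPs), each an RNA wrapped in Sm or LSm proteins, recognize the splice sites and are rearranged by PRP proteins into the active spliceosome. SR proteins (Srsf genes) and heterogeneous nuclear ribonucleoproteins (Hnrnp genes) bind the pre-mRNA and steer which exons are kept, and in muscle the set of exons changes as myoblasts become myotubes.

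Libraries held between 6472484 and 10163101 counts, and 3 counts, the least taken here as detected, amounted to 0.295 to 0.464 CPM (counts scaled to the library total). The MuSC markers Pax7, Myod1 and Itga7 were present in all 8 libraries, and the MuSC and myoblast markers summed to 2909 to 3372 CPM with vehicle and 2335 to 2929 with NAM/PN. Of 8 tested ones 1 was higher (median log2 fold change -0.18), 0 passed the edgeR test, and 1, Des, was lower at an unadjusted p under 0.05. All 20 markers of differentiating myocytes had lower means with NAM/PN, 14 of them passed the test as lower, and their summed level was 2434 to 4520 CPM with vehicle and 584 to 1458 with NAM/PN. Of 3 tested mural cell markers 1, Acta2, passed as lower, and the summed level of that list was 285 to 611 CPM with vehicle and 95.9 to 156 with NAM/PN. Fibro-adipogenic markers summed to 244 to 336 CPM and 121 to 1244 CPM, with Dcn at or near 0. Of 4 tested fibro-adipogenic markers, Col3a1 passed as lower, Cd34 had a lower mean, and Col1a1 and Col1a2 had higher means, each without passing, at an unadjusted p under 0.05. Endothelial markers, 3 of 8 of them at 0 in every library, summed to 3.46 to 21.2 CPM and 9.85 to 29.6 CPM, and immune markers to 4.08 to 14.1 CPM and 3.5 to 10.3 CPM with 6 of 8, Ptprc included, at 0 in every library. What part these shifts have in the values of the splicing genes was not tested, and in bulk RNA fewer cells of a type and less RNA per cell cannot be told apart. In vehicle library 3 the ribosomal RNA gene CT010467.1 took 18.7% of the counts, against 5.22% to 11.6% elsewhere, and the splicing genes took their smallest share there (1.48%). NAM/PN library 4 stood apart in the other direction, with the lowest share of that gene (5.22%) and the largest share of splicing genes (2.01%), and these 2 libraries also differed most from their groups in count profile.

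The promoters of the 4 members with the smallest p-values are shown because these are the members that 1 of the 2 count tests (DESeq2) called. Each line gives the 150 bases before the RefSeq transcription start on GRCm38.p6, 5′ to 3′ on the strand of the gene, with capitals for CCAAT boxes (CCAAT, or ATTGG on the other strand) and GC boxes (GGGCGG, or CCGCCC on the other strand). Srsf9 lies on chromosome 5 (chr5:115327027-115327176, plus strand), Hnrnpl on chromosome 7 (chr7:28810740-28810889, plus strand), Hnrnpu on chromosome 1 (chr1:178337816-178337965, minus strand) and Snrpf on chromosome 10 (chr10:93589659-93589808, minus strand).
Srsf9: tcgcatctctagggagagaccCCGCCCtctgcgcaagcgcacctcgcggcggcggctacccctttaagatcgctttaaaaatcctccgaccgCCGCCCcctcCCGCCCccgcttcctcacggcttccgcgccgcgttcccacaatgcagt
Hnrnpl: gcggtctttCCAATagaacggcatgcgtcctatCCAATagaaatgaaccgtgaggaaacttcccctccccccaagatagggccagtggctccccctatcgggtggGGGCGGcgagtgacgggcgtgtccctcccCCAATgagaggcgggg
Hnrnpu: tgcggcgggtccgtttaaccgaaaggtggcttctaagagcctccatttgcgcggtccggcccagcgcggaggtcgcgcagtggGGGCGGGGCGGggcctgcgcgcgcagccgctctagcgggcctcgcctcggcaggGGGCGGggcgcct
Snrpf: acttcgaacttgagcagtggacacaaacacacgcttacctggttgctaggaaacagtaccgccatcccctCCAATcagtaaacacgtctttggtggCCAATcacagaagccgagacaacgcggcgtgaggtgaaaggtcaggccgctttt

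The Srsf9 and Hnrnpu stretches held GC boxes without a CCAAT box, the Snrpf stretch held CCAAT boxes without a GC box, and the Hnrnpl stretch held both. RefSeq promoter windows of 300 bases (250 before and 50 after the start) were listed for 67 of the 79 tested members, 90 windows in all. A GC box was present in 67.8% of these windows and in 35.7% of all 32851 listed mouse windows. The ETS core (CCGGAAG, or CTTCCGG) was present in 28.9% of the members' windows and 8.86% of all windows, and the CCAAT box in 47.8% and 37.4%. The palindromic E-box CACGTG was found in 12.2% and 7.15%, whereas the TATA box (TATAAA, or TTTATA) was found in 7.78% and 13.6%. Median GC content was 60.5% in the members' windows and 52.7% in all windows, with a median of 25 and 7 CpG dinucleotides. These are letter matches in a fixed window, and some genes are listed with more than 1 window. All windows came from 27025 genes, expressed in these cells or not, and windows of the tested genes alone were not compared.

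Most splicing genes had slightly higher means with NAM/PN, and no single gene among them passed the edgeR test. The log2 fold change (NAM/PN over vehicle) was above 0 for 59 of 79 members (74.7%), against 49.8% of all tested genes, and below 0 for 20, against 50.2%. The median member differed by 0.15 on the log2 scale (0.09 without vehicle library 2), with the middle 50% of members between -0.01 and 0.29, while all tested genes had a median of -0.0022 and a middle 50% from -0.35 to 0.29. Among the 5911 tested genes between the 10th and the 90th percentile of the members' expression (average log2 CPM of 4.58 to 9.16) the median was 0.03, and 53.6% were higher. In the quasi-likelihood test of edgeR, adjusted by Benjamini-Hochberg over all genes, 0 of 79 members passed an adjusted p of 0.05 as higher, against 0.282% of all genes, and 0 passed as lower, against 0.995%. At an unadjusted p under 0.05, 11 members were higher (13.9%), against 3.96% of all genes, and 0 were lower, against 5.32%. With the pool as a block, edgeR passed 0 members as higher, against 0.274%, and 0 as lower, against 1.02%, and at an unadjusted p under 0.05 it had 10 higher, against 3.69%, and 1, Prpf18, lower, against 5.63%.

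DESeq2's Wald test on the same libraries called 4 members higher (5.06%), against 0.623% of all genes, and 0 lower, against 1.78%. By DESeq2 the 4 called genes were Srsf9 (adjusted p = 0.00371), Hnrnpu (adjusted p = 0.0141), Hnrnpl (adjusted p = 0.0424) and Snrpf (adjusted p = 0.0489), whose counts are uncertain for the pseudogene copy described with its family. At an unadjusted p under 0.05, DESeq2 had 11 members higher, against 4.06%, and 0 lower, against 5.84%. With vehicle and NAM/PN values that did not overlap, 8 members were higher (10.1%), against 2.79% of all genes, and 1 member, Lsm7, was lower, against 4.42%. Higher values in all 4 pools were found for 16 members (20.3%), against 8.49% of all genes, and lower values in all 4 pools for 1, again Lsm7, against 10.6%. The shares by p-value, overlap and pools were set against all genes only, not against genes of similar expression. The 95% interval of the fold change lay within 2-fold in either direction for 67 of 79 members (84.8%), against 40.4% of all genes. Within those limits it still reached 0.92 on the log2 scale for Hnrnpl and Lsm4, and for 12 members it reached beyond 2-fold. The median standard error on the log2 scale was 0.385 for all genes and 0.2 for the members.

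**Figure D1:**
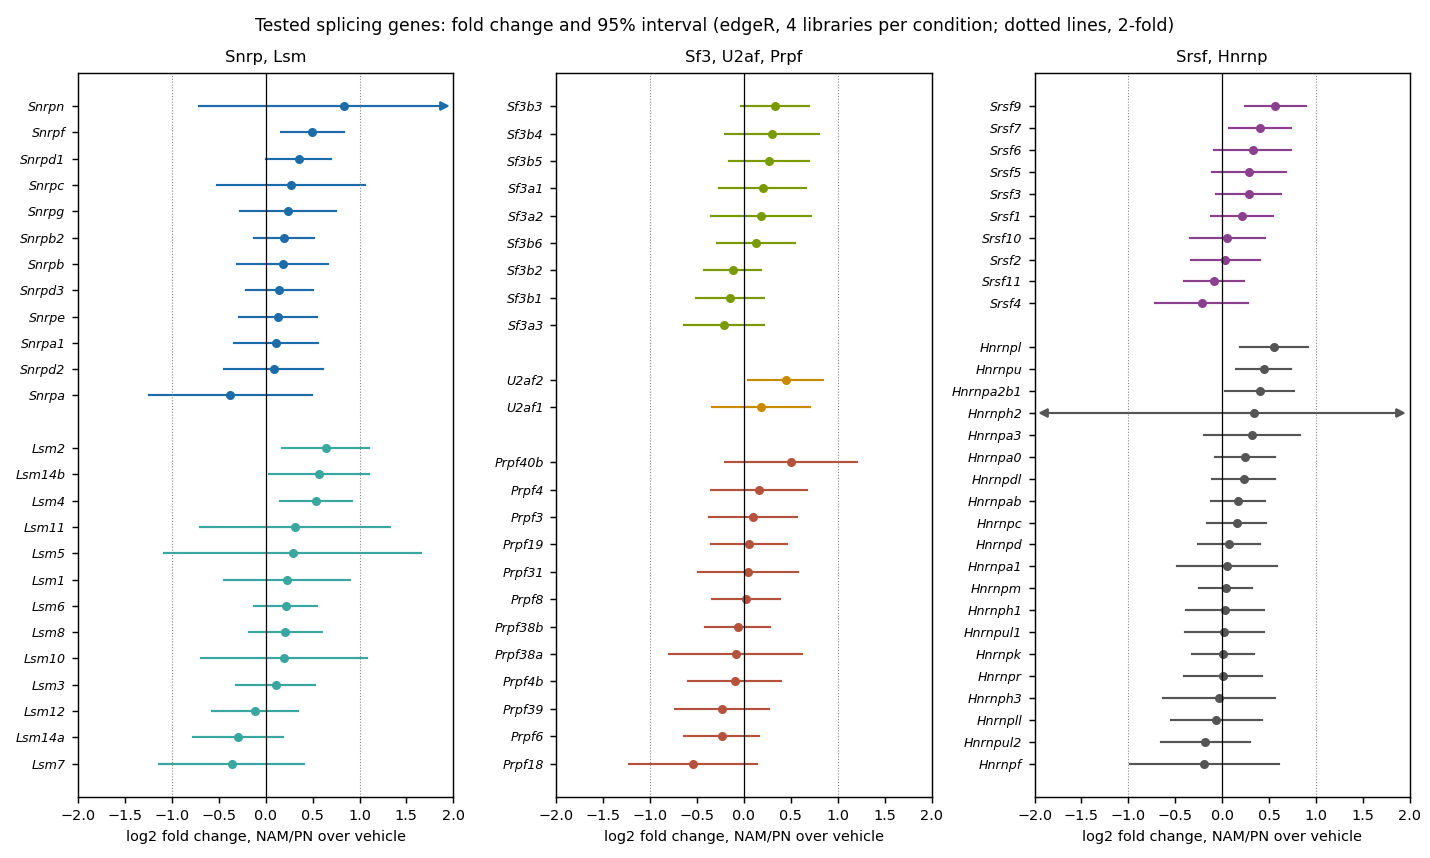
Log2 fold change of NAM/PN over vehicle (x axis) for 78 of the 79 tested splicing genes, grouped by family, with points for edgeR estimates from 4 libraries per condition, bars for 95% intervals, arrows where an interval leaves the axis, and dotted lines at 2-fold. Most points lie right of 0, the Prpf genes lie on both sides of it, and 12 genes, Snrpn, Hnrnph2, Lsm5 and Lsm11 among them, have intervals that reach beyond 2-fold.

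The snRNP core genes were higher in 11 of 12 cases, and the median of their log2 fold changes was 0.19. Their products are the Sm ring proteins (Snrpb, Snrpd1, Snrpd2, Snrpd3, Snrpe, Snrpf, Snrpg and, in neurons, Snrpn) and proteins bound to U1 or U2 snRNA (Snrpa, Snrpc, Snrpa1, Snrpb2). Snrpf measured 215.5, 255, 263 and 200.6 CPM in vehicle pools 1 to 4 and 343, 308, 352 and 315 CPM with NAM/PN. Every NAM/PN library exceeded every vehicle library, a log2 fold change of 0.50 (SE 0.16) that missed the threshold in edgeR (adjusted p = 0.195). Summed with its pseudogene copy Gm13092 (a near-identical copy), the log2 fold change was 0.32 (SE 0.15). Snrpd1, the most abundant member of the family and a component of the Sm ring, measured 631, 551, 381 and 544 CPM with vehicle and 601, 652, 693 and 744 with NAM/PN. Its ranges overlapped because vehicle pool 1 was above 1 of the treated libraries, and its log2 fold change was 0.35 (SE 0.17), falling to 0.22 without vehicle library 3.

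The highest and the lowest estimates of the family came from its scarce genes. Snrpn, the neuronal Sm protein encoded at an imprinted locus, had 3.71 to 6.28 CPM with vehicle and 5.42 to 12.5 with NAM/PN (log2 fold change 0.83, SE 0.74). Snrpa, which encodes the A protein of the U1 snRNP, had 19.2, 30.7, 29.1 and 29.2 CPM with vehicle and 25.1, 5.99, 28.6 and 23.5 with NAM/PN. The low value in NAM/PN pool 2 sets its estimate of -0.38 (SE 0.42), which is -0.07 without that library. The summed level of the 12 genes was 2272 ± 126 CPM with vehicle and 2687 ± 165 with NAM/PN (SD, n = 4), higher in all 4 pools.

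Among the 13 Lsm genes, 10 were higher, and the family median was 0.21 on the log2 scale (0.35 without NAM/PN library 3). LSm2 to LSm8 form the ring on U6 snRNA, LSm1 replaces LSm8 in the cytoplasmic ring that takes part in mRNA decay, and LSm10 and LSm11 belong to the U7 snRNP that processes histone mRNA. Lsm2, shared by both rings, measured 75.2, 71.1, 52.2 and 75.1 CPM with vehicle and 79.3, 92.8, 119.5 and 134 with NAM/PN. The conditions did not overlap, but pool 1 differed little, and the log2 fold change of 0.64 (SE 0.22) gave an adjusted p of 0.244 in edgeR. Lsm4, another ring protein, measured 156, 191, 114 and 159.6 CPM with vehicle and 240.5, 228.5, 202 and 227.5 with NAM/PN, again without overlap (log2 fold change 0.53, SE 0.18, edgeR adjusted p = 0.24).

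Lsm6, the ring gene with the most counts, had 297 to 375 CPM with vehicle and 324 to 439.9 with NAM/PN, ranges that overlapped (log2 fold change 0.21, SE 0.16). Lsm7 was the member whose values lay below vehicle in all 4 pools. It measured 18.9, 21.7, 19.9 and 20.7 CPM with vehicle and 16.6, 14.4, 15.1 and 17.0 with NAM/PN, and the log2 fold change was -0.36 (SE 0.37). Its 95% interval, from -1.14 to 0.41, includes no change, and edgeR gave it an adjusted p of 0.89. Its processed pseudogene copy Gm10146, with 27.9% of its counts, had 3.39 ± 3.18 CPM with vehicle and 5.96 ± 6.16 with NAM/PN and was higher in 3 pools, so that the direction of Lsm7 is uncertain. Lsm14b, which encodes an RNA-binding protein outside the rings, had 32.8 to 45.8 CPM with vehicle and 42.5 to 71.2 with NAM/PN. It was higher in all 4 pools, with overlapping ranges and a log2 fold change of 0.57 (SE 0.25).

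The SF3A and SF3B proteins are parts of the U2 snRNP that hold the branch point. Of the 9 genes, 6 were higher and 3 lower, and their summed level was 1596 ± 65.0 CPM with vehicle and 1619 ± 99.8 with NAM/PN, higher in 2 pools of 4. Sf3b3 had the highest estimate, with 145, 139.5, 172 and 132 CPM in vehicle pools 1 to 4 and 179, 165, 194 and 202 CPM with NAM/PN. It was higher in each pool although the ranges overlapped (log2 fold change 0.33, SE 0.17, edgeR adjusted p = 0.602). Sf3b2, the most abundant gene of the group, had 594 to 669 CPM with vehicle and 526 to 615 with NAM/PN, and Sf3a3 had the lowest estimate of the group at -0.21 (SE 0.20; -0.11 without NAM/PN library 1 and -0.34 without NAM/PN library 3). All 9 intervals lay within 2-fold.

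U2AF, the heterodimer that binds the polypyrimidine tract and the 3′ splice site, is encoded by U2af2 and U2af1. U2af2, the large subunit, measured 259, 204, 158 and 256 CPM with vehicle and 240.5, 285, 298 and 368 with NAM/PN. Pools 2, 3 and 4 were higher and pool 1 was slightly lower, with a log2 fold change of 0.44 (SE 0.19, edgeR adjusted p = 0.463) that was 0.31 without vehicle library 3. U2af1, the small subunit, had 43.4 to 72.1 CPM with vehicle and 51.8 to 94.0 with NAM/PN, and its estimate of 0.19 (SE 0.25) turned to -0.03 without NAM/PN library 4. U2af1l4, a paralog of U2af1, did not pass the filter on low counts, with at most 25 counts in a library and none in the NAM/PN libraries, and all bases of its transcript ends overlap a same-strand gene model, Gm49396.

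The Prpf genes had estimates on both sides of 0. They encode factors of the U4/U6.U5 tri-snRNP (Prpf3, Prpf4, Prpf6, Prpf8, Prpf31), the Prp19 ubiquitin ligase (Prpf19), U1-associated proteins (Prpf39, Prpf40b) and others. Of 13 genes 6 were higher and 7 lower, and the family median of -0.04 on the log2 scale ranged from -0.05 to 0.04 when each library was left out in turn. Prpf8, the large protein at the catalytic center, measured 219, 167, 207.5 and 183 CPM with vehicle and 214, 218.5, 167 and 187 with NAM/PN, the same range of values in both conditions. Its 95% interval ran from -0.34 to 0.38 on the log2 scale.

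Prpf18, which acts in the second step of splicing, had the lowest estimate of all tested members. It measured 53.6, 45.5, 75.2 and 60.8 CPM with vehicle and 19.2, 67.4, 47.2 and 27.8 with NAM/PN. Pools 1, 3 and 4 were lower and pool 2 was higher, which gave a log2 fold change of -0.54 (SE 0.33) and an adjusted p of 0.715 in edgeR. Without NAM/PN library 1 the estimate was -0.31, and without NAM/PN library 2 it was -0.91. Prpf40b had 21.5 to 24.4 CPM with vehicle and 18.1 to 44.6 with NAM/PN, a wider spread in the treated libraries (log2 fold change 0.50, SE 0.33, and 0.31 without NAM/PN library 1). The summed level of the family was 2050 ± 168 CPM with vehicle and 1985 ± 203 with NAM/PN, higher in 2 pools of 4.

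SR proteins carry an arginine and serine domain and recruit the spliceosome to exons. Of the 10 tested Srsf genes 8 were higher, with a family median of 0.25 on the log2 scale (0.16 without vehicle library 3), and all 10 intervals lay within 2-fold. Srsf9 had the smallest p-value of all members. It measured 220.1, 203, 221 and 200.2 CPM in vehicle pools 1 to 4 and 285, 328, 332 and 306.5 CPM with NAM/PN. The conditions were far apart relative to their spread, at 211 ± 11.1 and 313 ± 21.6 CPM (SD, n = 4), and the log2 fold change was 0.57 (SE 0.16). The adjusted p was 0.0921 in edgeR, past a threshold of 0.10 that 0.539% of all genes passed as higher, and leaving out each library in turn gave 0.0759 to 0.302. With the pool as a block in edgeR the adjusted p was 0.161.

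Srsf7, an SR protein with a zinc knuckle, measured 224, 224, 235 and 239 CPM with vehicle and 343, 277, 299 and 299 with NAM/PN. The conditions did not overlap, and the log2 fold change of 0.40 (SE 0.16) had an adjusted p of 0.352 in edgeR. Srsf3 and Srsf6 were also higher in all 4 pools, with overlapping ranges and log2 fold changes of 0.28 (SE 0.16) and 0.32 (SE 0.20). Srsf1, the founding SR protein, had 401 to 562 CPM with vehicle and 474 to 582 with NAM/PN. Srsf11, the most abundant of the family, had 509.5 to 650.3 CPM with vehicle and 481 to 618 with NAM/PN (log2 fold change -0.09, SE 0.15, and -0.03 without NAM/PN library 4 and -0.15 without NAM/PN library 1). Srsf4 had the lowest estimate at -0.22 (SE 0.24; -0.08 without vehicle library 1 and -0.35 without vehicle library 2), and all bases of its transcript ends lie opposite exons of Gm12992. Srsf12 did not pass the filter, with at most 8 counts in a library and none in the NAM/PN libraries.

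The Hnrnp genes encode abundant RNA-binding proteins of the nucleus, many of which repress exons. They had the highest summed level of the 7 families, 6950 ± 507 CPM with vehicle and 7958 ± 91.6 with NAM/PN, higher in all 4 pools. Of the 20 genes 16 were higher, but the family median was 0.06 on the log2 scale (0.16 without NAM/PN library 2), and Hnrnpu and Hnrnpa2b1 had the largest differences in mean CPM. Hnrnpu, which encodes a nuclear matrix protein, measured 1009, 809.6, 870.1 and 957 CPM with vehicle and 1261, 1162, 1170 and 1356 with NAM/PN. Every treated library was above every vehicle library (log2 fold change 0.44, SE 0.14, edgeR adjusted p = 0.178).

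Hnrnpl, which binds CA-rich RNA, measured 257, 174, 222 and 212 CPM with vehicle and 287, 303.5, 303 and 378 with NAM/PN. The conditions did not overlap, and the log2 fold change of 0.56 (SE 0.17) had an adjusted p of 0.16 in edgeR. Hnrnpa2b1 measured 664, 722, 408 and 736 CPM with vehicle and 805, 899, 861 and 775 with NAM/PN. Here vehicle pool 3 lay far below the other vehicle libraries, and the log2 fold change of 0.40 (SE 0.18) was 0.23 without that library. Hnrnpm, in contrast, was almost equal, with 1003 to 1055 CPM with vehicle and 961.5 to 1141 with NAM/PN and a 95% interval of -0.25 to 0.32 on the log2 scale. Hnrnpk (log2 fold change 0.01, SE 0.16) and Hnrnpd (0.07, SE 0.16) also had intervals within 2-fold. Hnrnpf had the lowest estimate of the family at -0.19 (SE 0.38), which was 0.02 without vehicle library 1.

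**Figure D2:**
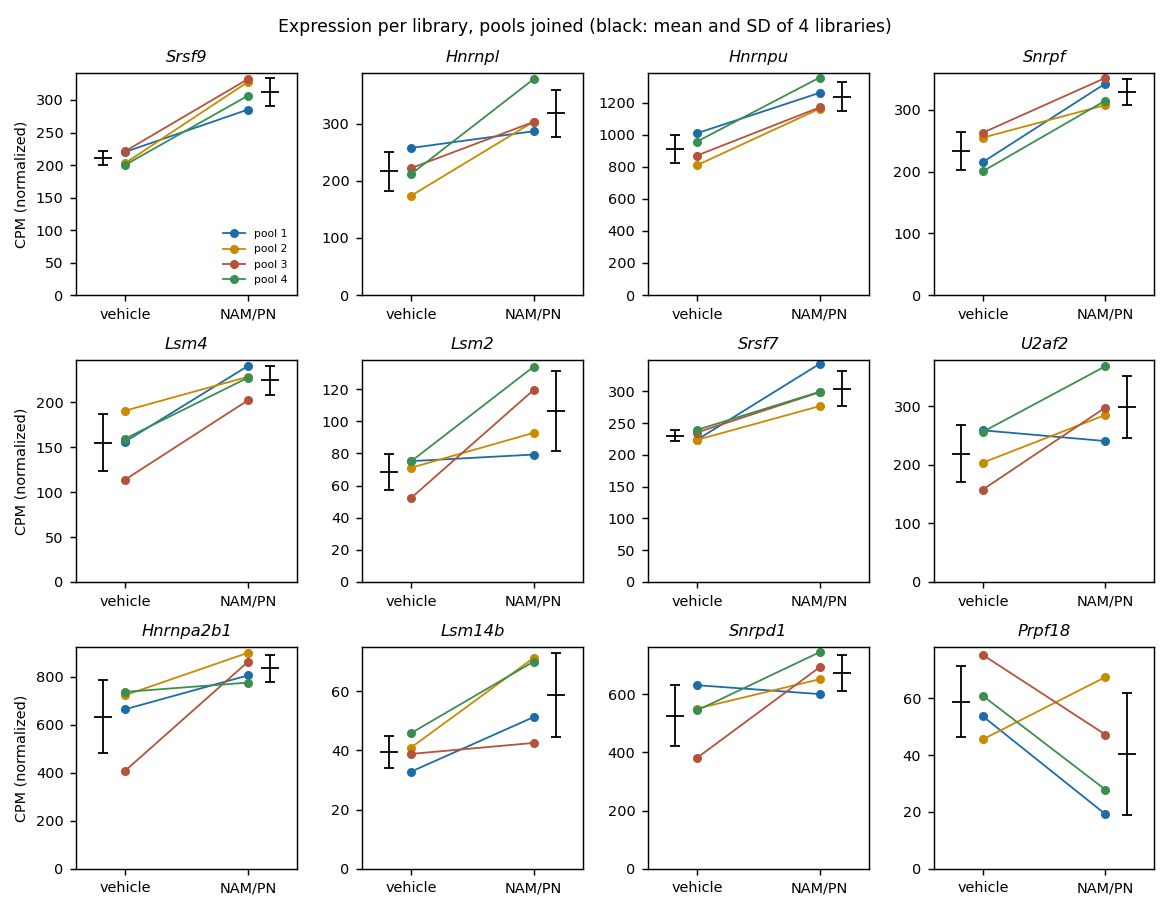
Normalized CPM per library (y axis from 0) for 11 splicing genes with an unadjusted p under 0.05 in edgeR and for Prpf18, with lines joining the vehicle and NAM/PN libraries of a pool and black bars for mean and SD of 4 libraries. Srsf9 is separated most clearly, at 200.2 to 221 CPM against 285 to 332 CPM, whereas pool 1 of U2af2 and Snrpd1 and pool 2 of Prpf18 run against the other pools.

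By pool, the median member was higher with NAM/PN in all 4, at 0.08, 0.21, 0.25 and 0.14 on the log2 scale in pools 1 to 4. Over all tested genes the pool medians were -0.01, -0.0022, 0 and -0.05. In pools 1 to 4, 49, 55, 52 and 50 of the 79 members were higher, against 48.6%, 49.4%, 49.2% and 47% of all tested genes. The 79 genes together summed to 16980 ± 745 CPM with vehicle and 19000 ± 113 with NAM/PN, a ratio of 1.12. They took 1.48% to 1.76% of a vehicle library and 1.9% to 2.01% of a NAM/PN library, so that the shares did not overlap. The ratio of the summed levels was 1.31 for U2af, 1.18 for Snrp, 1.17 for Lsm, 1.14 for Hnrnp, 1.14 for Srsf, 1.01 for Sf3 and 0.97 for Prpf. Scaled to library totals without normalization, the Prpf ratio turned to 1.01 and the others were 1.06 (Sf3) to 1.36 (U2af). Differences between families were not tested.

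**Figure D3:**
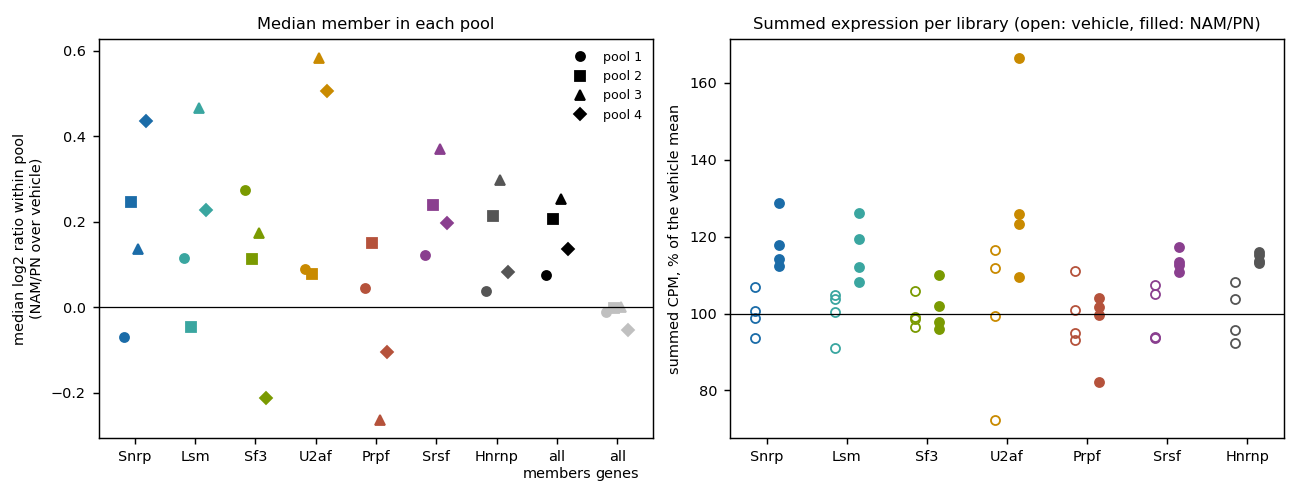
Left, median log2 ratio of NAM/PN over vehicle within each pool (symbols) for each family, for all 79 members and for all tested genes; right, summed CPM of each family in each library as percent of the vehicle mean (open, vehicle; filled, NAM/PN). The pool medians of all members lie between 0.08 and 0.25, and the summed levels of the Snrp, Lsm, Srsf and Hnrnp families are separated by condition while those of Sf3, U2af and Prpf overlap.

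Reads of some members cannot be assigned with certainty. Transcript ends of 18 tested members matched another annotated gene over at least 100 bases at 95% identity or more, and for 6 of them the matching genes held over 10% of the member's counts: Snrpf (101%), Lsm5 (67.7%), Lsm7 (27.9%), Snrpc (25.9%), Hnrnpr (16.1%) and Snrpe (14.3%). Reads dropped for matching several genes would not show in these shares. Hnrnpa3, for example, matched 25 other genes, which held 0.87% of its counts. For Snrpf the copy is the processed pseudogene Gm13092, with 18678 counts over the 8 libraries against 18529 for Snrpf. Gm13092 measured 268 ± 45.1 CPM with vehicle and 296 ± 53.8 in treated cultures (SD, n = 4), and its log2 fold change was 0.14 (SE 0.18). Adding both genes gave 501.5 ± 48.4 CPM and 625 ± 60.1 CPM, a log2 fold change of 0.32 (SE 0.15, edgeR adjusted p = 0.528). The last 500 bases of Snrpf also lie entirely opposite exons of Ccdc38. In all, transcript ends of 9 tested members share bases with a gene on the opposite strand and those of 2 with a gene on the same strand.

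Other genes of the splicing machinery, in 7 lists with 178 genes, did not lean one way: 92 of 175 tested genes were higher, and the median was 0.01 on the log2 scale (0.07 without NAM/PN library 4). By edgeR with Benjamini-Hochberg adjustment 0 of them passed in either direction, and at an unadjusted p under 0.05, 7 were higher and 9 lower (4.0% and 5.14% of 175, against 3.96% and 5.32% of all genes). DESeq2 called 2, Srpk3 and Rbm24, both lower, 1.14% against 1.78% of all genes. The list nearest to the Snrp family, the other snRNP proteins, had 12 of 15 genes higher and a median of 0.32. Snrnp25, a protein of the minor spliceosome, had the smallest p there, with 45.9, 46.8, 48.0 and 43.9 CPM with vehicle and 59.3, 84.9, 83.6 and 86.7 with NAM/PN. The conditions did not overlap (log2 fold change 0.77, SE 0.22, edgeR adjusted p = 0.106). Its neighbors in the minor U11/U12 snRNP, Snrnp35 and Snrnp48, had log2 fold changes of 0.92 (SE 0.47) and 0.52 (SE 0.20), each higher in all 4 pools with overlapping ranges. These 2 genes were named after their values were seen.

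The snRNP assembly genes were higher in 11 of 16 cases (median 0.15), with the smallest p for Mepce, which caps 7SK RNA (0.78, SE 0.34). RNA helicases were higher in 11 of 15 cases (median 0.15), with the smallest p for Ddx5 (0.26, SE 0.16). The list of activation and catalytic step factors, which includes the Prp19 complex, had 21 of 44 genes higher and a median of -0.04. Its smallest p was that of Slu7, a factor of the second step, at 90.6, 74.3, 109 and 97.5 CPM with vehicle and 73.2, 68.8, 67.2 and 25.7 with NAM/PN. The ranges of Slu7 did not overlap, at a log2 fold change of -0.66 (SE 0.27). Exon junction complex genes were higher in 9 of 17 cases (median 0.08), with the smallest p for Upf3b, a nonsense-mediated decay factor (-0.33, SE 0.16).

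Among the regulators outside the member families, 26 of 58 tested genes were higher (median -0.01), and 0 passed the edgeR test. At an unadjusted p under 0.05 in edgeR, 3 of the 58 were higher and 4 lower, against 3.96% and 5.32% of all genes. Rbm24, a muscle splicing factor, had the smallest p, with 332, 379, 465 and 482 CPM with vehicle and 211, 296, 310.3 and 199.7 with NAM/PN. No treated library reached the vehicle range (log2 fold change -0.70, SE 0.19, edgeR adjusted p = 0.0757, DESeq2 adjusted p = 0.0105). Of the 10 kinases and phosphatases that act on SR proteins 2 were higher (median -0.10), and Srpk3, a muscle SR protein kinase, had the smallest p. Srpk3 measured 14.0, 3.85, 3.95 and 17.1 CPM with vehicle, and with NAM/PN it had 4 counts (0.557 CPM) in pool 2 and 0 counts in the other pools. It missed the threshold in edgeR (adjusted p = 0.0577) and passed in DESeq2 (adjusted p = 6.31e-05), and with so few treated counts no fold change is given. The myocyte markers given above were also higher with vehicle, and their part in the Srpk3 values was not tested.

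**Figure D4:**
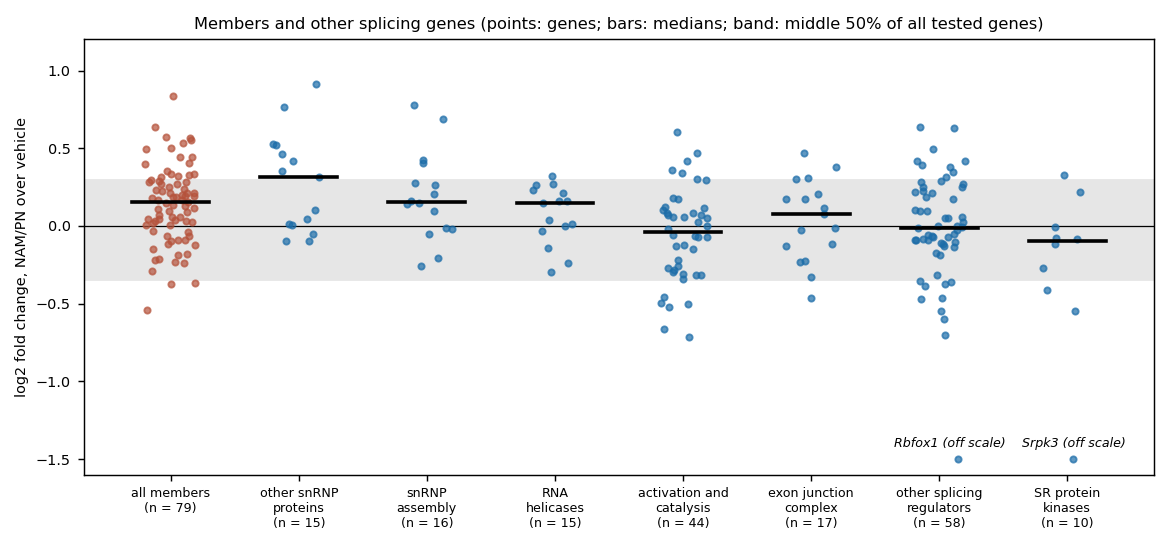
Log2 fold change of NAM/PN over vehicle (y axis) for each tested gene (points) of the 79 members and of 7 other lists of splicing genes, with bars for medians and a gray band for the middle 50% of all 12060 tested genes. The medians of the members (0.15), the other snRNP proteins (0.32), snRNP assembly (0.15) and the helicases (0.15) lie above 0 and that of the kinases and phosphatases (-0.10) below it, with points on both sides of 0 in every list, and the scarce genes Srpk3 and Rbfox1, whose fitted values lie off the scale, are drawn at the lower edge.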

How the data were processed

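The authors deposited raw counts per gene for 8 libraries, without normalization. Per the labels, QuantSeq 3′ libraries were counted with HTSeq on GRCm38; the study's methods name RNASTAR as aligner. Strand and multimapping settings are not given in the sources used here. Because reads come from transcript 3′ ends, CPM were not divided by length. Positions and names came from GENCODE M21, which held 55227 identifiers.

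Genes were filtered with filterByExpr (minimum count 10, minimum total 15), normalized by TMM and compared with edgeR 4.0.16 (glmQLFit, glmQLFTest) in R 4.3.3, with Benjamini-Hochberg adjustment over all 12060 genes and a threshold of 0.05. DESeq2 1.42.0, the pool as a block, no filter, a threshold of 0.10, library totals without normalization (for summed CPM) and leaving out each library were alternatives. CPM given per library are TMM-normalized. Ratios within pools used a pseudocount of 0.5 CPM. The test was tested on simulated data. Transcripts were compared with BLAST 2.17.0 and promoters taken from RefSeq (GRCm38.p6). Standard errors and intervals cover the spread between pools as fitted; floors cover counting error only.

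The labels give the vehicle and NAM/PN libraries of a number the same pool identifier, which pairs libraries of the same mice. Deviations of same-pool libraries from their group means correlated at -0.01, 0.01, -0.03 and 0.03. The members and gene lists were chosen with earlier results of these data known. Named were, per family, the gene with the highest mean CPM and those with the highest and lowest log2 fold change, the genes left out by the filter, and the gene with the smallest p per other list. The values of 1 tested member are not reported here on their own, and it stays in all counts and sums. Further genes, the 11 with an unadjusted p under 0.05 among them, were named after their values were seen, as was the sum with Gm13092.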

Additional observations from a re-analysis of the deposited data

Results flagged for a closer look

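In 64 groups of 4 libraries examined for a library far from the others (chance flags about 1 in 20 groups, here 3.2), 1 was found. Snrpa with vehicle measured 19.2 CPM in pool 1 and 29.1 to 30.7 CPM in the other pools, and the gap was 0.869 of the whole range.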

How the results depend on the processing

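With the pool as a replicate block, 56 members had a log2 fold change above 0, 0 members passed the test in either direction, and no call on a member changed. With DESeq2, 4 members were called higher (Srsf9 0.56, Hnrnpu 0.44, Hnrnpl 0.55 and Snrpf 0.49 on the log2 scale), and 2 other splicing genes were called lower. At an adjusted p of 0.10, 1 member (Srsf9) was called higher and 2 other splicing genes (Srpk3 and Rbm24) lower. Without the filter on low counts 3 other splicing genes (Srpk3, Rbm24 and Qk) were called lower. Scaled to library totals, the ratios of summed CPM were 1.01 for Prpf, against 0.97, and 1.06 to 1.36 for the other families, each within its spread of the normalized ratio. Over all genes, 34 were called higher and 120 lower, against 75 and 214 with DESeq2, 135 and 231 without the filter, and 65 and 179 at 0.10. Leaving out each library in turn, 14 to 43 genes were called higher (14 without NAM/PN library 1) and 62 to 134 lower (62 without vehicle library 2). In the same fits 54 to 59 members had a log2 fold change above 0, 0 members were called, 0 to 1 other splicing genes were called lower (Srpk3, without vehicle library 3 or NAM/PN library 2), and the members' median was 0.09 to 0.18. U2af1 turned to -0.029 without NAM/PN library 4 and Hnrnpf to 0.018 without vehicle library 1. Their ranges were -0.03 to 0.30 for U2af1 and -0.38 to 0.02 for Hnrnpf. The tested members named by the family rule or with an unadjusted p under 0.05 in edgeR were 24, and 22 of them kept their direction in every alternative run. Other named members, such as Prpf8 and Hnrnpm, were not followed when single libraries were left out. For 12 of 79 members the 95% interval of the fold change reached beyond 2-fold.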
